A study of Mus musculus with 7 samples.

Results

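The clustered protocadherin genes were taken from the deposited gene table as the protein-coding rows whose symbol is Pcdha, Pcdhac, Pcdhb, Pcdhga, Pcdhgb or Pcdhgc followed by a number. This rule found 57 of 54532 annotated genes, namely 14 in the alpha cluster, 22 in the beta cluster and 21 in the gamma cluster. RNA came from the motor cortex of 3 samples labelled WT and 4 labelled cKO (conditional knockout), each a separate library. All 7 had received a virus named GA100 in both lateral ventricles on postnatal day 0 and were sampled 3 months later, so the controls carry the virus too. The labels give neither the allele that was deleted nor the driver of the deletion, and they name no uninjected animals. By its title the study concerns C9orf72 poly-GA mice, where poly-GA is a repeat protein of glycine and alanine, and the stress granule protein TIA1. Xist, high in females, had 15217 counts in WT replicate 1, 19151 in cKO replicate 1 and at most 8 in any other library. The Y-linked Ddx3y had 0 counts in those 2 and at least 1073 in the others. Each group thus holds both sexes, and no fit included sex. The labels do not say in so many words that each library is a separate mouse. Each group therefore holds more than 1 animal, but each p-value rests on the spread among the libraries, which may be technical in part.

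Clustered protocadherins are cadherin-like adhesion proteins of the neuronal surface that bind identical copies of themselves on a neighbouring membrane. Each alpha or gamma gene has its own promoter and a large first exon for the extracellular part, which is spliced to constant exons shared by the whole cluster, while beta genes have no constant exons. Most isoforms are alternate isoforms, of which each neuron switches on a small set through CTCF and cohesin. The C-type isoforms at the end of the alpha and gamma clusters are known to be used more uniformly. The resulting surface code is known for letting neurites of 1 neuron avoid each other. The survival of cortical interneurons is known to depend on the C-type isoform Pcdhgc4. In bulk tissue a level is a mean over many neurons, and fewer cells using an isoform cannot be told apart from less RNA per cell.

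Library totals ran from 15181390 to 16463721 counts, and the 57 genes together held between 9842 and 10909 counts per library, 0.0624% to 0.0678% of the total. Neuronal markers were abundant in both groups: Slc17a7, the vesicular glutamate transporter of cortical excitatory neurons, had 1305 ± 184 against 1058 ± 59.2 CPM. CPM are counts scaled to the effective library size, and group means stand throughout as WT against cKO, each ± SD over n = 3 and n = 4 libraries. Of 12 excitatory neuron markers 8 had a negative log2 fold change, of 10 inhibitory neuron markers 7 had a positive one, and of 12 myelin markers 12 did; their part in the results below was not tested. Tia1 stood at 75.1 ± 18.4 against 79.1 ± 4.29 CPM. It was therefore not lower in the libraries labelled cKO, and the genotype labels were not checked by it. Some libraries stood apart in markers of other tissue. The 9 meningeal fibroblast markers were highest in WT replicate 1 and cKO replicate 3, with means of 0.67 and 0.59 on the log2 CPM scale above the mean of all libraries, against -0.47 to 0.04 in the other 5. Their summed level ran from 60.8 to 123.6 CPM in WT and from 64.9 to 123.7 CPM in cKO. Choroid plexus markers summed to between 14.3 and 22.7 CPM in WT and between 19.8 and 175 CPM in cKO, the highest in cKO replicate 4. Striatal neuron markers summed to between 953 and 1241 CPM in WT and between 993 and 1793 CPM in cKO. None of these marker lists had a gene at 0 counts in all libraries.

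All 57 genes lie on the forward strand of chromosome 18 in the mm10 build. The alpha genes start between 36930184 and 37143503 and end between 37187657 and 37187661. The beta genes start between 37264938 and 37517871 and have no exon base common to the cluster. The gamma genes start between 37661793 and 37819513 and end between 37841870 and 37841873. For all 57 genes the deposited gene length equalled the summed exon length in GENCODE release M21, so this annotation was used to see which exon bases a count can be assigned to. In that annotation 2860 exon bases belong to every one of the 14 alpha genes and 2116 to every one of the 21 gamma genes. The share of a gene's exon bases that no other annotated gene covers had a median of 45.7% in alternate alpha genes, 53.8% in gamma A, 55.7% in gamma B and 51.4% in C-type genes. It was 100% for 19 of the 22 beta genes. How reads in shared exons were counted is not stated, so alpha and gamma counts are uncertain. The rows described next show only that such reads were not added to every gene that holds the exon.

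Several rows near 0 counts had little or no sequence of their own. Pcdhga10 had between 1 and 5 counts per library, and 0 of its 4732 exon bases are exclusive to it. Of these, 2613 are shared with Gm26672, a transcript of the reverse strand with 8 to 27 counts per library, and the other 2119 are shared with gamma genes. At most 5 counts per library were thus given to it from exons shared with other gamma genes. Gm38182, whose 1530 exon bases all lie within those of Pcdhgc5, had 0 counts in every library. Pcdha4, with 2 to 6 counts, has 404 exclusive bases of 5768. A second row named Pcdha11 (ENSMUSG00000102206), with 1 to 5 counts, has 1268 of 7535. The long annotated genes Gm42416, Gm37013 and Gm37388, which span from the alpha into the gamma cluster, had 0 counts in all 7 libraries. Low rows were not all of this kind. Pcdhb1 is exclusive over its full length and had 0 counts in 4 libraries, which allows up to 0.198 CPM there, and 1 or 2 counts in the other 3. Pcdha8 has 46.4% exclusive bases and had 5 to 14 counts.

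Levels between genes were compared on the authors' FPKM scale, which divides by gene length. That length includes the exon bases that alpha and gamma genes share. Pcdhga10 and Pcdha4 hold the bases common to their clusters, yet had at most 5 and 6 counts per library. Reads in those bases were therefore largely not counted for these rows. To the extent that this holds for the other alpha and gamma genes, FPKM understates them beside beta genes. The C-type genes led. Pcdhgc5 had a mean of 15.5 ± 1.54 FPKM (SD, n = 7), with 13.9 FPKM in the lowest and 18.4 FPKM in the highest library. This range lay above that of every other clustered protocadherin. Next came Pcdhac2, which is known for the spacing of serotonergic axons, at 7.48 ± 0.883 FPKM, and Pcdhgc3, known for promoting dendritic branching, at 6.15 ± 0.651 FPKM; their ranges overlapped. Pcdhgc5 made up 25.5% of the summed FPKM of the gamma cluster, and Pcdhac2 made up 45.2% of that of the alpha cluster. The other C-type genes were lower. Pcdhgc4, the isoform on which cortical interneuron survival is known to depend, had 2.66 ± 0.289 FPKM and Pcdhac1 had 0.764 ± 0.0653 FPKM.

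The alternate isoforms lay below Pcdhgc3. The highest of each class were Pcdhb17 at 4.84 ± 0.530 FPKM, Pcdhga6 at 3.81 ± 0.465 FPKM, Pcdhgb6 at 3.72 ± 0.245 FPKM and Pcdha12 at 1.92 ± 0.295 FPKM (SD, n = 7). Median FPKM was 0.668 over alternate alpha genes, 1.82 over beta, 2.21 over gamma A and 1.74 over gamma B genes. Neighbours in the order of means overlapped in their ranges over the 7 libraries for almost every pair. The exceptions were Pcdhgc5 against Pcdhac2, Pcdha2 (0.586 FPKM) against Pcdha1 (0.260 FPKM), and Pcdha1 against Pcdha8 (0.109 FPKM). Between neighbours in the order, most alternate isoforms are therefore not separated beyond their spread, while genes farther apart in it can be. The order also depended on the length used. When CPM were divided by exclusive exon bases only, a choice made after the data were seen, Pcdhgc5, Pcdhgc3 and Pcdhac2 still held ranks 1 to 3. Pcdhb17 moved from rank 4 to rank 12, and Pcdhga11 from rank 11 to rank 4. Pcdhga11 has 1256 exclusive bases, but 2637 where overlap with genes on the opposite strand is not counted. For Pcdhgc3 these numbers are 1821 and 3380. Whether counting used strand is not given, so the rank of Pcdhga11 and the order of Pcdhgc3 and Pcdhac2 on this scale are uncertain. Class medians on that scale were 1.44 CPM per kilobase for alternate alpha, 1.94 for beta, 4.41 for gamma A and 3.44 for gamma B genes, and alternate alpha genes were lowest on both scales.

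**Figure D1:**
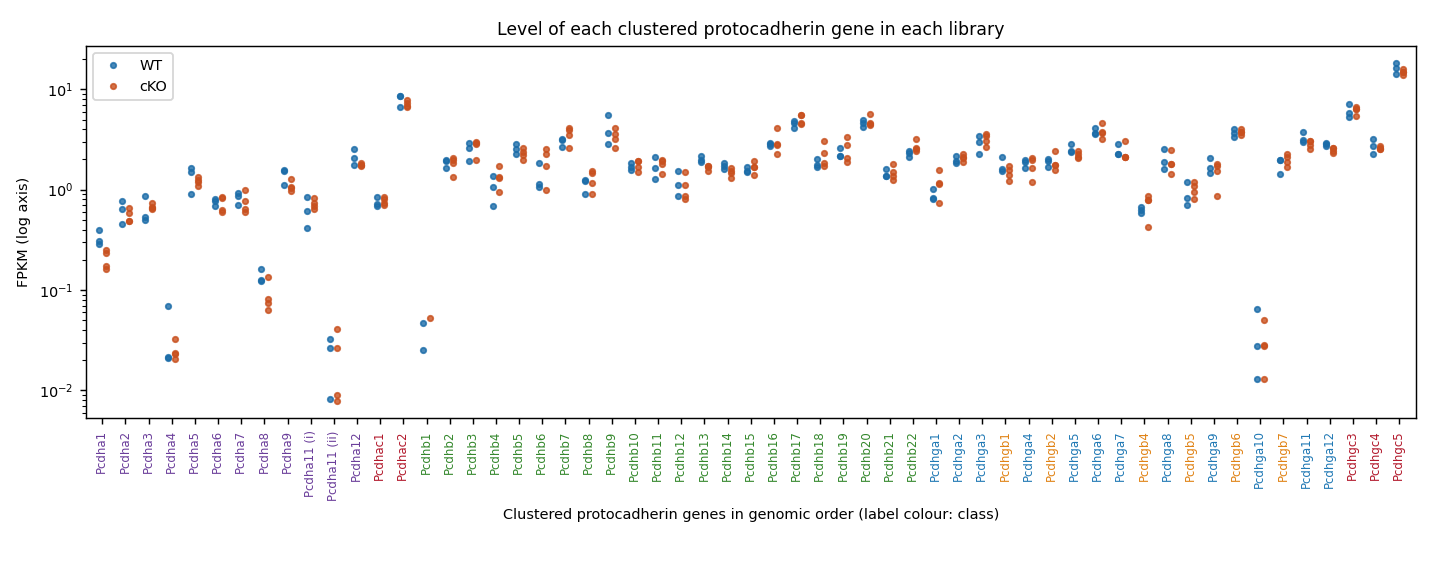
FPKM (log axis) of the 57 clustered protocadherin genes in each of the 7 libraries, in genomic order, with 1 point per library, WT and cKO offset, and label colours for class; values of 0 FPKM cannot be drawn on a log axis and are left out. Pcdha11 (i) is ENSMUSG00000007440 and (ii) is ENSMUSG00000102206. Pcdhgc5, Pcdhac2 and Pcdhgc3 stand highest, and Pcdha4, Pcdha11 (ii), Pcdhb1 and Pcdhga10 lie near 0.

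A gene of the gamma cluster outside the rule separated 4 libraries from the other 3 by a wider gap than any of the 53 tested genes of the rule did for the same libraries. Pcdhgb8 is annotated as a polymorphic pseudogene in mm10 (chromosome 18, 37761801 to 37841870, forward strand), and 54.1% of its exon bases are exclusive to it. It had 44, 156 and 32 counts in WT replicates 1 to 3 and 128, 35, 118 and 135 counts in cKO replicates 1 to 4. WT replicate 2 and cKO replicates 1, 3 and 4 thus lay between 7.72 and 9.63 CPM. WT replicates 1 and 3 and cKO replicate 2 lay between 2.11 and 2.69 CPM, with nothing in between. These 4 libraries were set by the order of Pcdhgb8 itself. That no other of the 16308 genes tested had a wider gap with the 4 on top is therefore no support for the split. The gap of Pcdhgb8 was 1.48 on the log2 CPM scale. The split does not match genotype, since both groups hold libraries of each kind. Nor does it follow sex, since Xist was detected at 15217 and 19151 counts in WT replicate 1 and cKO replicate 1, on opposite sides of it. It is not balanced over genotype, since most of the high libraries are cKO, so genes that follow it can carry a genotype difference. The log2 fold change of Pcdhgb8, cKO minus WT, was 0.46, and 1.45 without WT replicate 2. Pcdhgb8 was singled out after its values were seen.

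The same 4 libraries held the 4 highest values in 6 of the 53 tested clustered protocadherins (11.3%) and the 4 lowest values in another 6 (11.3%). Over all 16308 genes tested these shares were 2.90% and 2.63%, and over 397 other tested genes of chromosome 18 they were 4.53% and 2.77%. Higher in these 4 were Pcdhb3, Pcdhb4, Pcdhb6, Pcdhb7, Pcdhb17 and Pcdhga3. Lower were Pcdha2, Pcdha5, Pcdhac2, Pcdhb9, Pcdhga5 and Pcdhgc5. Any gap above 0 counted, and several were small. The gaps ran from 0.007 in Pcdhga5 to 0.60 in Pcdhb6 on the log2 CPM scale, against 1.48 in Pcdhgb8. The shares describe only the order of libraries and were given no test, because the split was read from values at the same locus.

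Pcdhb6 showed the widest gap among them. Its values were 4.28, 6.98 and 4.03 CPM in WT replicates 1 to 3 and 6.57, 3.79, 9.54 and 8.52 CPM in cKO replicates 1 to 4. The lowest of the 4 high libraries, cKO replicate 1, stood above the highest of the 3 low ones, WT replicate 1. Pcdhb4 had 3.92, 5.13 and 2.58 CPM in WT and 6.51, 3.53, 4.94 and 4.89 CPM in cKO. Pcdhb3 had 9.91, 11.2 and 7.33 CPM in WT and 10.9, 7.58, 11.2 and 11.1 CPM in cKO. Both repeat the split of Pcdhb6 into high and low libraries, by smaller steps. Pcdhb5, which lies between Pcdhb4 and Pcdhb6, does not: WT replicate 1, at 8.87 CPM, lay above cKO replicates 3 and 4, at 8.39 and 7.96 CPM. Pcdhac2 ran the other way, with 50, 39.1 and 51.0 CPM in WT and 40.6, 46.8, 42.8 and 39.2 CPM in cKO. So did Pcdhgc5, with 124, 110 and 140 CPM in WT and 114, 122, 114 and 106 CPM in cKO. In both, the lowest of WT replicates 1 and 3 and cKO replicate 2 lay above the highest of the other 4.

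**Figure D2:**
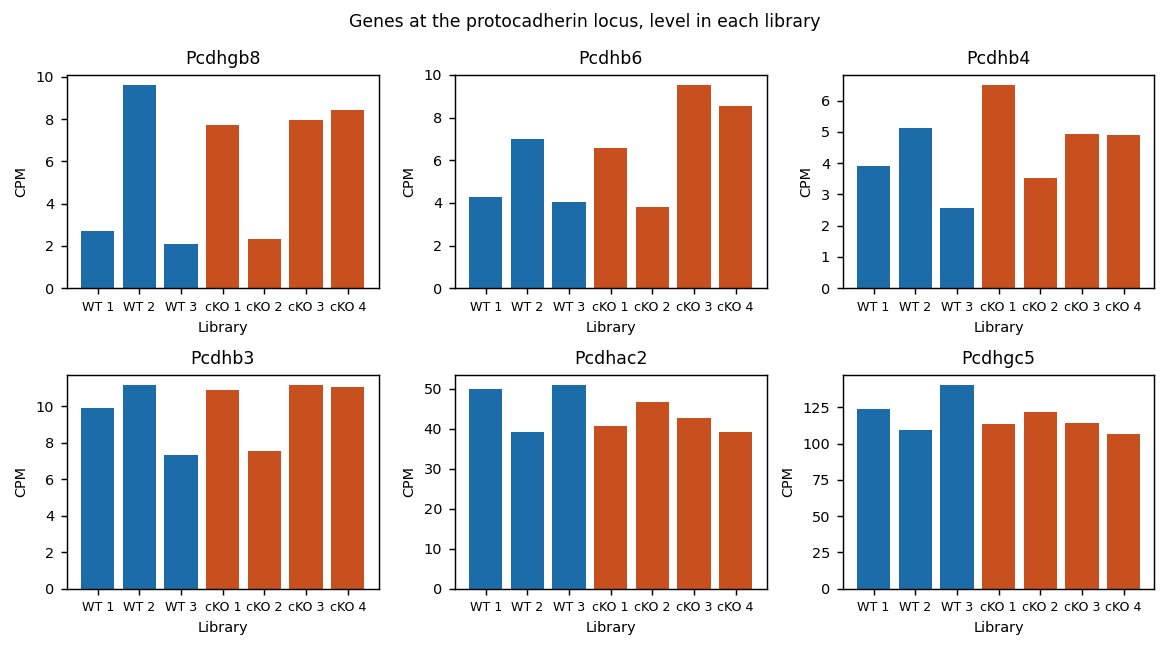
CPM (axis from 0) of Pcdhgb8 and of 5 clustered protocadherins in each library, with 1 bar per library, WT in blue and cKO in orange. In Pcdhgb8, Pcdhb6, Pcdhb4 and Pcdhb3 the bars of WT 2 and cKO 1, 3 and 4 are the 4 highest, and in Pcdhac2 and Pcdhgc5 they are the 4 lowest.

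The comparison of cKO with WT asked whether any clustered protocadherin differed with genotype under the same virus. None passed the threshold. The edgeR quasi-likelihood test, adjusted by Benjamini-Hochberg over 16308 genes, called 0 of the 53 that passed the filter on low counts and 0 of all genes (0.0%); the smallest adjusted p among the 53 was 0.696. The 4 left out by the filter were Pcdha4, Pcdha11 (ENSMUSG00000102206), Pcdhb1 and Pcdhga10. At an unadjusted p under 0.05 edgeR listed 2 of the 53 (3.77%), Pcdha1 and Pcdha9, against 7.14% of all genes. Both were lower in cKO, as were 2.91% of all genes, and 0 of the 53 were higher, against 4.22%. Limma-voom called 0 of the 53 and 0.0% of all genes, and at an unadjusted p under 0.05 it listed 1 of the 53, Pcdha1, against 6.78%. DESeq2 called 0 of the 53 (0.0519% of all genes) and listed 0 of them at an unadjusted p under 0.05 (6.43%). Blocking on replicate number, edgeR called 0 of the 53 (0.0123%) and listed 0 of them (7.52%).

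Groups did not overlap in 4 of the 53 (7.55%), against 7.38% of all genes tested, so this share is near the background. In 1 of the 4, Pcdhb22, cKO was higher, as in 3.97% of all genes. In 3, Pcdha1, Pcdhb13 and Pcdhga12, cKO was lower, as in 3.42%. Log2 fold changes are cKO minus WT. Their median over the 53 genes was 0.02, with 28 above 0 (51.8% of all genes) and 25 below 0 (48.2%), and over all genes tested it was 0.01. Without cKO replicate 3 the median over the 53 was -0.07, with 23 above 0.

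The alternate alpha genes had the lowest median among the classes. Of the 10 tested, 8 lay below 0 and 2 above, around a median log2 fold change of -0.15, and 0 passed the adjusted threshold. Their summed level was 50, 40.02 and 52.2 CPM in WT replicates 1 to 3 and 40.6, 43.0, 44.4 and 40.3 CPM in cKO replicates 1 to 4. WT replicates 1 and 3 were highest, and WT replicate 2 lay below every cKO library. The means were 47.4 ± 6.51 against 42.1 ± 1.97 CPM, a cKO to WT ratio of 0.887. Without WT replicate 2 the median was -0.36, with 9 of 10 negative; without WT replicate 1 and cKO replicate 3 together it was -0.11, with 8 of 10 negative. WT replicates 1 and 3 are also the WT libraries that were low in Pcdhgb8, and the part of that in the alpha values was not tested.

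Pcdha1, the first gene of the cluster, had the smallest p. Its values were 1.53, 2.16 and 1.65 CPM in WT and 1.27, 0.931, 1.35 and 0.877 CPM in cKO. Every WT library lay above every cKO library. The log2 fold change was -0.68 ± 0.30 (SE; 95% interval from -1.34 to -0.03), and its adjusted p in edgeR was 0.696. These levels rest on 14 to 35 counts per library. On log2(FPKM + 1), which understates changes of low genes, the value was -0.14, and over the alternatives on counts it ran from -0.89 to -0.53. Pcdha9 had 8.26, 6.05 and 8.45 CPM in WT and 5.61, 5.26, 6.76 and 5.76 CPM in cKO. Here WT replicate 2 fell within the cKO range. Its log2 fold change was -0.38 ± 0.17 (SE), with an edgeR adjusted p of 0.696. Pcdha12, the most abundant alternate alpha gene, had 13.5, 9.45 and 11.03 CPM in WT and 9.59, 9.25, 9.74 and 9.40 CPM in cKO. WT replicate 2 again sat among the cKO libraries, and the log2 fold change was -0.25 ± 0.14 (SE). It was -0.11 without WT replicate 1 and -0.38 without WT replicate 2.

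The beta genes leaned the other way. Of 21 tested, 15 lay above 0 and 6 below, around a median log2 fold change of 0.10, and 0 passed the threshold. Their summed level was 206, 208 and 192 CPM in WT and 216, 196, 246 and 199 CPM in cKO, means of 202 ± 8.67 against 214 ± 23.1 CPM. The groups overlapped, and cKO replicate 3 alone stood apart at the top. Without cKO replicate 3 the median was 0.014, with 11 positive and 10 negative values. That library also had raised meningeal fibroblast markers (0.59, as above), and its inhibitory neuron markers had the highest mean of the 7 libraries, 0.17 on the log2 CPM scale above the mean of all. The inhibitory markers did not move together: Gad1, Gad2, Slc32a1, Dlx1 and Reln were highest in cKO replicate 3, but Pvalb, Npy and Lhx6 were lowest there. Sst and Vip lay in between. On the log2 CPM scale the myelin markers of cKO replicate 3 stood at -0.43, its oligodendrocyte precursor markers at -0.30 and its excitatory neuron markers at -0.13, the last 2 lists at their lowest of the 7 libraries. Its striatal neuron markers stood at 0.31. Counts over all genes differed by a chi-square per degree of freedom of 15.6 to 23.1 in pairs with this library. The part of these differences in the beta values was not tested.

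Pcdhb22, at the end of the beta cluster, had the smallest p among positive values. It had 15.97, 15.4 and 14.1 CPM in WT and 17.2, 17.03, 21.04 and 16.3 CPM in cKO. Every cKO library lay above every WT library, the nearest by a small step. The log2 fold change was 0.24 ± 0.12 (SE), with an edgeR adjusted p of 0.715, and it was 0.15 without cKO replicate 3. Pcdhb17, the most abundant beta gene, had 21.4, 22.6 and 19.4 CPM in WT and 26.2, 21.2, 25.8 and 21.9 CPM in cKO. The groups overlapped, and the log2 fold change was 0.17 ± 0.11 (SE), or 0.11 without WT replicate 3. The largest positive value of all 53 genes was that of Pcdhb6, 0.48 ± 0.29 (SE), with an edgeR adjusted p of 0.745. It was 0.30 without cKO replicate 3, 0.76 without WT replicate 2 and 0.19 without WT replicate 1 and cKO replicate 3 together. The libraries high in Pcdhb6 are the 4 high in Pcdhgb8, of which 1 is WT and 3 are cKO. Pcdhb13 was also without overlap, lower in cKO, with 7.46 ± 0.566 against 6.24 ± 0.328 CPM.

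**Figure D3:**
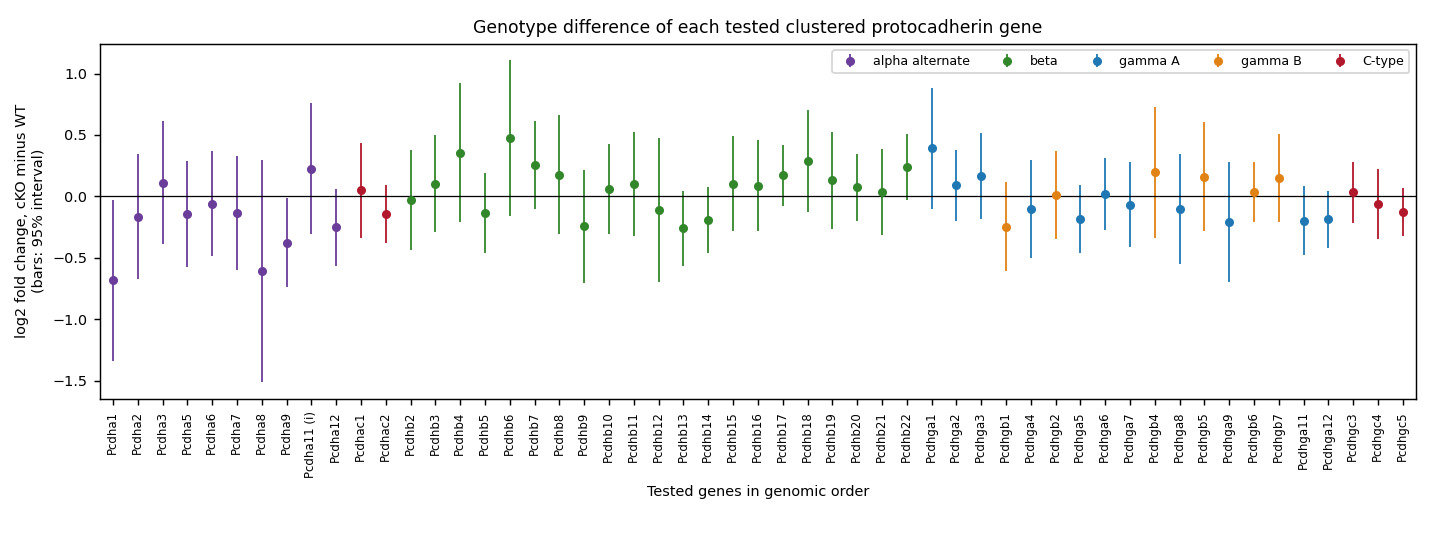
Log2 fold change, cKO minus WT, of the 53 tested genes in genomic order, with points coloured by class and bars for 95% intervals; Pcdha11 (i) is ENSMUSG00000007440. Intervals of Pcdha1 and Pcdha9 lie below 0 without adjustment for the number of genes, and all others cross 0.

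Gamma genes showed no lean as a cluster, with 10 positive and 10 negative values among 20 tested. Gamma A genes had 4 positive and 7 negative values with a median of -0.10, and gamma B genes had 5 positive and 1 negative with a median of 0.09. The gamma A median was -0.21 without cKO replicate 2, -0.17 without cKO replicate 3, -0.05 without WT replicate 3, -0.03 without cKO replicate 1 or cKO replicate 4, and -0.04 with the replicate block. The gamma B median turned to -0.0009 without WT replicate 1 and to -0.04 without WT replicate 1 and cKO replicate 3 together. Summed gamma A levels ran from 128 to 138 CPM in WT and from 117 to 137 CPM in cKO. Summed gamma B levels ran from 49.4 to 57.7 CPM in WT and from 50.8 to 58.7 CPM in cKO. Both pairs of ranges overlapped.

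Among the 20 tested gamma genes of the rule, Pcdhga1 had the largest positive value, 0.39 ± 0.23 (SE), with an edgeR adjusted p of 0.733. It had 5.39, 4.45 and 4.36 CPM in WT and 4.04, 6.19, 8.39 and 6.27 CPM in cKO. The cKO values straddled the WT range, with cKO replicate 1 lowest and cKO replicate 3 highest of all 7. Without cKO replicate 3 the value was 0.20. Pcdhga12 was the gamma gene whose groups did not overlap. It had 19.1, 19.7 and 18.3 CPM in WT and 16.5, 17.7, 17.25 and 15.5 CPM in cKO, for a log2 fold change of -0.19 ± 0.11 (SE) with an edgeR adjusted p of 0.730. The most abundant genes of the gamma A and gamma B classes had group means close together. Pcdhga6 had 17.98 ± 1.37 against 18.2 ± 2.90 CPM, and Pcdhgb6 had 17.3 ± 1.55 against 17.7 ± 1.09 CPM. Pcdhga6 changed sign on log2(FPKM + 0.1) and with upper quartile scaling, as a value this near 0 can.

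The 5 C-type genes had 3 negative and 2 positive values, all small, between -0.14 and 0.05, with a median of -0.06; without WT replicate 2 the median was -0.19. Pcdhgc5, the most abundant, had a log2 fold change of -0.13 ± 0.09 (SE), with a 95% interval from -0.33 to 0.07; it was -0.22 without WT replicate 2 and -0.03 without WT replicate 3. Pcdhac2 had -0.14 ± 0.11 (SE), with an interval from -0.38 to 0.09; it was -0.27 without WT replicate 2 and -0.07 without WT replicate 3. Both are among the genes that were lower in the 4 libraries high in Pcdhgb8, and their groups overlapped. Pcdhgc3 had 38.9, 32.4 and 29.3 CPM in WT and 30.2, 37.2, 34.6 and 35.2 CPM in cKO. WT replicate 1 was highest and WT replicate 3 lowest, so the WT libraries enclosed all cKO libraries, with a log2 fold change of 0.03 ± 0.11 (SE) and an interval from -0.21 to 0.28. Pcdhgc4 had 15.3 ± 2.57 against 14.7 ± 0.414 CPM, with WT replicates on both sides of every cKO library. Pcdhac1 had 4.08 ± 0.427 against 4.22 ± 0.337 CPM.

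**Figure D4:**
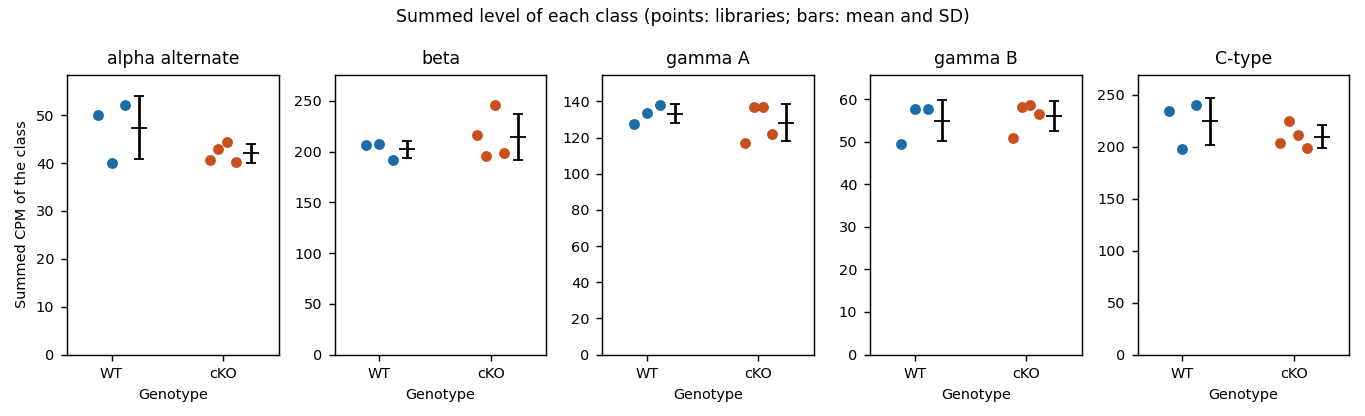
Summed CPM of each class (axes from 0) in WT and cKO, with 1 point per library and the mean and SD beside them. In all 5 classes the WT and cKO points overlap; the highest beta point, 246 CPM, is cKO replicate 3.

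The spread between libraries differed by class. The biological coefficient of variation, edgeR's estimate of spread beyond counting noise, had a median of 0.150 over the 53 genes. It was 0.127 over all genes tested and 0.142 over the 2937 tested genes whose mean level fell within the interquartile range of the clustered protocadherins. It was 0.110 over C-type genes, 0.155 over beta genes and 0.180 over alternate alpha genes. The highest single value was that of Pcdhb6, 0.257, and Pcdhgb8 had 0.444. The lowest was that of Pcdhgc5, 0.0917. The estimates are drawn towards a trend over expression level, and C-type genes are the more abundant, and the part of level in this order was not tested.

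**Figure D5:**
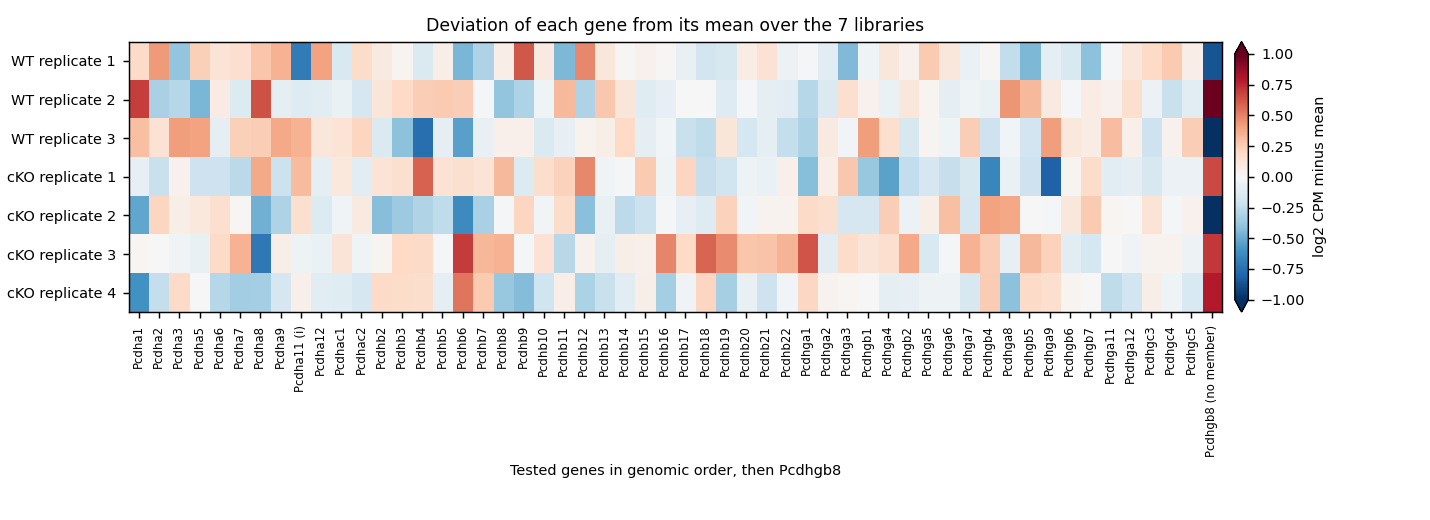
Log2 CPM of each of the 53 tested genes and of Pcdhgb8 in each library, as the deviation from that gene's mean over the 7 libraries (colour scale from -1 to 1), in genomic order; Pcdha11 (i) is ENSMUSG00000007440. In Pcdhgb8 and Pcdhb6, WT replicate 2 and cKO replicates 1, 3 and 4 are above the mean and the other 3 libraries below it, and cKO replicate 3 is above the mean over most beta genes.

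Genes that act on the clusters showed no called change either. Of 23 tested regulators of promoter choice and chromatin, 19 lay above 0 and 4 below, around a median log2 fold change of 0.06, and 0 passed the adjusted threshold. Ctcf, whose protein marks the promoters and enhancers of the clusters, had 78.8 ± 1.35 against 81.5 ± 3.47 CPM. Rad21, a cohesin subunit, had 159 ± 9.41 against 162 ± 9.42 CPM, and Smchd1, a chromatin protein known to repress the clusters, had 59.6 ± 5.48 against 60.6 ± 5.22 CPM. At an unadjusted p under 0.05 edgeR listed 2 of the 23, against 7.14% of all genes. Nipbl, the cohesin loader, had 78.01 ± 1.88 against 95.9 ± 11.9 CPM, a log2 fold change of 0.30 ± 0.10 (SE) with an edgeR adjusted p of 0.680. Tet3, which oxidises methylated cytosine, had 85.1 ± 3.41 against 103 ± 13.4 CPM, a log2 fold change of 0.27 ± 0.10 (SE) with an edgeR adjusted p of 0.694. In both genes each cKO library lay above each WT library, as in 3.97% of all genes.

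Downstream, the 7 genes of ADAM10 and gamma-secretase, which cut protocadherins at the membrane, had 5 positive and 2 negative values and a median of 0.03. Adam10 had 105 ± 5.31 against 108 ± 10.7 CPM. The 21 intracellular partners had 9 positive and 12 negative values, with a median of -0.01. Ptk2 and Ptk2b, the kinases FAK and PYK2 that protocadherin tails are known to restrain, had log2 fold changes of -0.10 ± 0.09 and -0.10 ± 0.08 (SE). Among 6 synaptic partners, 3 had positive and 3 negative values with a median of -0.02. Homer1, a postsynaptic scaffold with an activity-induced short form, had 421 ± 46.7 against 538 ± 67.3 CPM, a log2 fold change of 0.36 ± 0.11 (SE) with an edgeR adjusted p of 0.680. With no filter on low counts the edgeR adjusted p was 0.0475, in a setting that called 198 of all genes where the main fit called 0.

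Non-clustered protocadherins, single genes with a similar extracellular part, were compared as the nearest relatives. Of 12, 11 were tested, with 4 positive and 7 negative values and a median of -0.03, and 0 passed the adjusted threshold. Pcdh1, the most abundant, had 299.7 ± 22.1 against 294 ± 16 CPM. Pcdh20 had the largest value, 0.49 ± 0.28 (SE), and it rested on cKO replicate 3 with 36.7 CPM, where the other 6 libraries had between 13.7 and 17.2 CPM. Of 20 tested large and classical cadherins, 9 had positive and 11 negative values, with a median of -0.01. Of these, 3 of the 20 were at an unadjusted p under 0.05, against 7.14% of all genes: Celsr2 (-0.20 ± 0.09, SE), Cdh20 (0.26 ± 0.10) and Cdh22 (-0.22 ± 0.08), each with an edgeR adjusted p of 0.694.

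Genes beside the clusters had no called change. Taf7, which lies between the beta and gamma clusters on the reverse strand, had 8.96 ± 0.895 against 8.95 ± 0.204 CPM. Of 13 tested genes on the neighbour list, 4 had positive and 9 negative values and 0 passed the adjusted threshold. One of the 13, Relch, lies on chromosome 1 and is no neighbour. Ndufa2, a complex I subunit upstream of the alpha cluster, was the only one of the 13 at an unadjusted p under 0.05, against 7.14% of all genes. It had 31.3, 22.9 and 22.7 CPM in WT and 22.1, 19.2, 15.4 and 19.2 CPM in cKO, for a log2 fold change of -0.43 ± 0.15 (SE) with an edgeR adjusted p of 0.680. Without WT replicate 1, its highest library, the value was -0.27. The long noncoding RNA 3222401L13Rik, just before the gamma cluster, had 19, 39 and 15 counts in WT and 33, 25, 27 and 32 counts in cKO, with the 4 highest in WT replicate 2 and cKO replicates 1, 3 and 4. Hars, a histidyl-tRNA synthetase gene, and Zmat2, both before the alpha cluster, had their 4 lowest CPM in these libraries. Over all genes tested, these libraries were the 4 highest in 2.90% and the 4 lowest in 2.63%. The RNA, Hars and Zmat2 were chosen after their values were seen, because they repeat the split. How many other neighbours repeat it is not given here.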

How the data were processed

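Gene counts and FPKM of 7 mouse motor cortex libraries were used. Per the submitters' processing notes, the authors' raw counts were made with featureCounts 1.5.0-p3 on mm10, and DESeq2 1.20.0 was used; how reads were aligned, whether strand was used and how reads over several genes were counted is not given in the sources used here. The deposited FPKM are scaled to the listed gene length and to library size. Per the labels' protocols, the cDNA was made without a described strand mark.

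Counts of all genes were tested with edgeR 4.0.16 in R 4.3.3 (TMM factors, default filterByExpr, quasi-likelihood F test, genotype as the factor, Benjamini-Hochberg over 16308 genes, adjusted p under 0.05 called). Each SE was taken as the size of the fitted log2 change over the square root of F. The function was tested on simulated data. Alternatives used other scalings and filters, DESeq2 1.42.0, limma 3.58.1 and FPKM. Exon overlaps came from GENCODE M21. No pair of libraries agreed within sampling noise, with chi-square per degree of freedom from 4.42 to 23.1.

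The members and lists were chosen with earlier results of these data known. Named genes were the C-type genes, the gene with the highest FPKM of each other class, genes at an unadjusted p under 0.05, the 2 smallest p in each direction, Tia1, and in each other list the genes at an unadjusted p under 0.05 or else the most abundant; other named genes were chosen after their values were seen. The rule also names a gene that is not reported here. Sums of counts and class medians were given no test. Same-numbered libraries of the groups deviated together at correlations of 0.110, 0.128 and 0.122 across genes. WT replicate 2 and cKO replicate 4 correlated at 0.210 and WT replicate 1 and cKO replicate 3 at 0.129. These values do not establish that the numbers pair the libraries, and cKO replicate 4 has no partner. The main fit used no pairing, and the replicate block was run only as an alternative. Intervals cover the spread between libraries, and limits from 0 counts (3 counts) cover counting error only. Sequences of these genes were not used here.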

Additional observations from a re-analysis of the deposited data

Results flagged for a closer look

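Among 63 results checked for a single cKO library far from the other 3, 4 were found, where chance flags about 1 in 20. Pcdhb3 had 7.58 CPM in cKO replicate 2 and at least 10.9 CPM in the other cKO libraries, and Pcdhgb8 had 2.33 CPM in cKO replicate 2 and at least 7.72 CPM in the others. Both follow the order of libraries described above, with WT replicates 1 and 3 as low. Pcdhb20 had 20.4 CPM in cKO replicate 3 and at most 16.5 CPM in the other cKO libraries, and Pcdhga7 had 15.8 CPM there and at most 11.2 CPM in the others.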

How the results depend on the processing

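Under all 19 alternatives 0 clustered protocadherins were called. The count of all genes called, 0 here, was 6 with DESeq2, 3 on log2(FPKM + 1) with no filter, 198 with no filter on low counts, 2 with the replicate block and 1 without WT 1 and cKO 3 together (added after the data were seen). It ranged from 0 to 3 when 1 library was left out, with 3 without WT replicate 2 and 1 each without WT replicate 1 and without cKO replicate 4. The replicate block changed no call among these genes. Leaving out 1 library moved the median log2 fold change to between -0.191 and -0.0164 for C-type genes, -0.0699 and 0.0275 for all 53, and -0.364 and -0.0920 for alternate alpha genes; the cause was not tested.

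Of 34 genes recomputed under every alternative that could give a value, 21 kept their sign throughout. Without WT 1 and cKO 3 together the sign turned for Adam10 (-0.0143), Pcdha2 (0.00266), Pcdhac1 (-0.0468), Pcdhb9 (0.0250), Pcdhga3 (-0.0219), Pcdhgc4 (0.0457) and Tia1 (-0.0217). Pcdhga6 turned on log2(FPKM + 0.1) (-0.000558) and with upper quartile scaling (-0.00441). With 1 library left out, values ranged from -0.0306 to 0.0803 for Adam10, -0.0981 to 0.00432 for Pcdh1, -0.355 to 0.0165 for Pcdha2 and -0.372 to 0.0286 for Pcdha5. They ranged from -0.0164 to 0.134 for Pcdhac1, -0.0493 to 0.228 for Pcdhb3, -0.447 to 0.0407 for Pcdhb9 and -0.101 to 0.0823 for Pcdhga6. They ranged from -0.0313 to 0.102 for Pcdhgb6, -0.0551 to 0.149 for Pcdhgc3, -0.191 to 0.0591 for Pcdhgc4 and -0.0624 to 0.277 for Tia1. Depth limits the alternate alpha genes most, with at most 220 counts in any library. Promoter and protein comparisons that had been planned were not run.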

Other observations

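Transcripts annotated on the reverse strand within the clusters were given few counts. Gm29994, antisense within the gamma cluster, had 4 to 15 counts per library, Gm37446, which covers 1927 exon bases of Pcdhb12, had 1 to 10, and Gm10544 at the end of the alpha cluster had 3 to 21. The protocol describes no strand mark. Where such a transcript shares exon bases with a protocadherin, as Gm37446 does with Pcdhb12, reads of both in those bases cannot be told apart.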
